A study of Oryza sativa Indica Group with 12 samples.

Results

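The response of roots of the rice cultivar BR-IRGA 409 to excess Fe is described here, over every gene measured and not only those that handle Fe. It is the comparison of 3 arrays of plants given excess Fe with 3 arrays of control plants, 6 of the 12 arrays of the series, and it covers 57258 probe sets. The members were taken by array label, and all probe sets other than the manufacturer's control probe sets were kept. BR-IRGA 409 is an indica rice (Oryza sativa ssp. indica) grown in southern Brazil and known as susceptible to Fe toxicity. The other 6 arrays are of EPAGRI 108, a cultivar known as tolerant.

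Plants of both groups were moved from vermiculite to hydroponics and were treated 20 days after germination. The BR-IRGA 409 excess Fe group received 500 mg/L Fe and the BR-IRGA 409 control group 6.5 mg/L Fe, with FeSO4 as the source of Fe in both. Per the study's methods, the control solution also held Na2SO4 to match the sulfur of the excess Fe solution, so Fe and sodium differed between the groups and their effects cannot be told apart. Total RNA of whole roots was taken after 3 days of treatment and hybridised to GeneChip Rice Genome Arrays, on which a probe set is a group of short probes for 1 transcript. The labels call the 3 arrays of a group biological replicates and do not say how many plants stand behind each. Values are log2 intensities, so a difference of 1 is a doubling, and the 3 values given for a group are those of replicates 1, 2 and 3.

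Rice takes up Fe both as the ferrous ion and as ferric Fe bound to secreted chelators of the mugineic acid family, which are made from nicotianamine. In flooded soils ferrous Fe builds up, and Fe inside the cell that is not bound drives the formation of hydroxyl radicals. Plants limit this by lowering uptake and by storing Fe in ferritin, a protein shell of plastids, or in the vacuole.

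Excess Fe raised many more transcripts than it lowered. In limma, with p-values adjusted by Benjamini-Hochberg over all probe sets, 627 probe sets were up-regulated (1.10% of those tested) and 143 were down-regulated (0.250%), where a call needs both an adjusted p under 0.05 and 3-fold or more. Called either way were 770 probe sets, or 1.34% of those tested, and 81.4% of these calls were rises. The counts of gene groups below stand beside that share. Below 3-fold the directions were nearly even, with 1798 probe sets higher and 1808 lower at the same adjusted p. By the adjusted p alone 4.24% of probe sets were higher and 3.41% lower. Counted as genes, each by its brightest probe set, 345 of 17905 rose (1.93%) and 74 fell (0.413%). The median difference over all probe sets was -0.03.

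The falls reached as far as the rises, although they were fewer. In the fit, 136 probe sets rose and 30 fell by at least 8-fold, and 9 and 8 by at least 32-fold, dim probe sets included. The median rise was 2.25 and the median fall -2.09 on the log2 scale. Transcripts that fell started from a high level, with a median of 9.13 in control roots, against 6.03 for those that rose and 5.19 for all probe sets.

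For 126 of the up-regulated probe sets (20.1%) all 3 control arrays lay at or under the brightest probe set for a synthetic tag, which has no target in rice, and for 21 of the down-regulated ones (14.7%) all 3 excess Fe arrays did. Where that holds for a gene named below, the dim group was set to that level, 4.51 to 4.93 on these arrays, and the change is given as "at least N-fold". Where only some arrays of a group lay there, the fitted difference is printed and its size is uncertain. In 1 called probe set, with no listed gene, both groups lay at or under that level, and no fold is given for it.

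**Figure D1:**
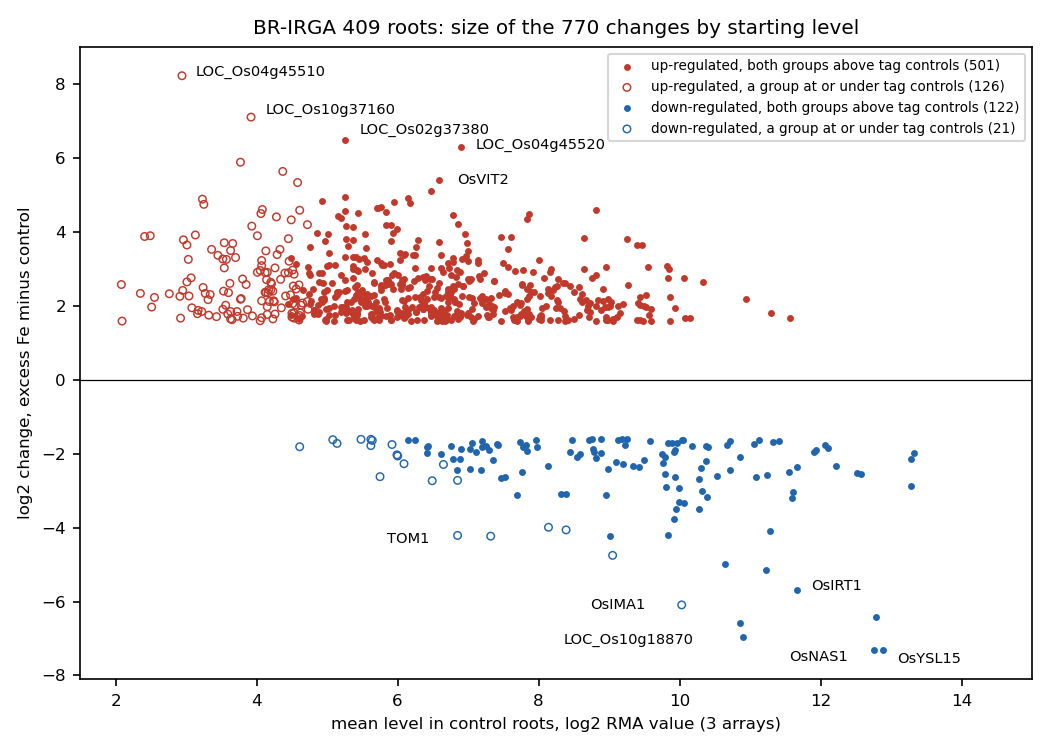
Each point is a called probe set of BR-IRGA 409 roots, with the mean log2 intensity of the 3 control arrays on the horizontal axis and the log2 difference of excess Fe minus control on the vertical axis. Colours mark the direction, and open points mark probe sets with a group at or under the tag controls. Probe sets that were not called are not shown. The falls start from brighter probe sets than the rises, with control medians of 9.13 and 6.03, against 5.19 for all probe sets.

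The 3 excess Fe arrays had like shifts over the called probe sets, which were called from these same arrays. Their medians from the control mean were 2.25, 2.41 and 2.16 over the up-regulated probe sets and -2.24, -2.13 and -2.17 over the down-regulated ones. Replicate 2 was the highest of the 3 for 364 of the 627 rises, replicate 1 for 209 and replicate 3 for 54. In 769 of the 770 calls the excess Fe arrays did not overlap the control arrays, whereas over all probe sets 11.1% lay wholly above and 13.1% wholly below. The exception, Os.19584.1.A1_at, was named after its values were seen. It has no listed gene and read 8.36, 7.70 and 7.51 in controls and 10.58, 8.30 and 9.44 with excess Fe. Over all probe sets, the first principal component of the 6 arrays (60.8% of the variance) separated the groups. On the next (20.3%) excess Fe replicate 1 and control replicate 1 stood apart from the rest, at 40.9 and 45.14, with the other 4 arrays from -26.19 to -12.78. The lowest correlation between arrays of a group was 0.9909 in controls and 0.9917 with excess Fe.

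The tissue label was checked with marker genes. The silicon transporter genes Lsi1 and Lsi2, which mark root exodermis and endodermis, were bright in both groups, with means of 13.58 and 13.57 for Lsi1 and of 12.77 and 11.93 for Lsi2 in control and excess Fe roots. The Lsi2 difference, -0.83, had an adjusted p of 0.00126 and was under 3-fold. The root patterning gene SHR1 had means of 8.08 and 7.79, while SCR1 was dim (5.42 and 4.75) and above the tag controls on 4 of the 6 arrays. Of 9 probe sets for genes of green tissue, 7 lay above the tag controls on all 6 arrays, and all 7 were lower with excess Fe. Only 1 of them was called, a Rubisco small subunit gene (LOC_Os12g19470), with a difference of -1.72 (adjusted p = 0.00961). It read 9.75, 10.01 and 10.15 in controls and 8.99, 7.89 and 7.87 with excess Fe. Other Rubisco small subunit probe sets differed by -1.54, -1.12 and -0.32 (adjusted p = 0.00047, 0.00459 and 0.0991). LHCP differed by -1.17 (adjusted p = 0.0029). The CAB2R probe sets were bright in control roots, with means of 12.07 and 10.69. They differed by -0.7 and -0.84 (adjusted p = 0.322 and 0.281). None of the 6 probe sets for genes of the dividing root tip was called, with differences from -0.68 to -0.09. In whole roots, fewer cells of a type and less RNA per cell cannot be told apart, and the part of these shifts in other results was not tested.

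The genes that bring Fe into the root were the group with the deepest falls. Of 12 called probe sets for Fe uptake and chelation 11 fell, with a median fall of -5.14. The groups by description used here and below rest on the descriptions in the study's own tables, which were chosen on these arrays, so their counts are not independent evidence of a direction.

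Nicotianamine synthases make the precursor of the Fe chelators, and both synthases that are most active in Fe-starved roots fell. OsNAS1 (LOC_Os03g19436) read 12.55, 12.85 and 12.88 in controls and 5.03, 5.54 and 5.80 with excess Fe, a difference of -7.30 (SE 0.46, adjusted p = 3.29e-06). OsNAS2 (LOC_Os03g19420) read 12.49, 12.82 and 13.02 against 6.32, 6.18 and 6.60, a difference of -6.41 (SE 0.18, adjusted p = 1.81e-09). The groups were far apart in both, but the 2 genes are close copies of each other and their probe sets may share signal. The remaining synthase moved the other way, and OsNAS3 (LOC_Os07g48980) rose from 7.52, 8.26 and 7.75 to 9.99, 9.96 and 10.15, by 2.19 (SE 0.22, adjusted p = 0.000111).

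The next steps of the pathway fell as well. OsNAAT1, the aminotransferase that acts on nicotianamine, dropped from 11.03, 11.30 and 11.35 to 6.45, 5.86 and 5.94, a difference of -5.14 (SE 0.21, adjusted p = 9.07e-08). TOM1, which exports the finished chelator deoxymugineic acid from rice roots, read 6.94, 6.98 and 6.64 in controls and lay under the tag controls in all 3 excess Fe arrays, at least 4.55-fold lower (adjusted p = 3.31e-07).

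Transporters of the chelated and of the ferrous form fell together. OsYSL15 (LOC_Os02g43410), which takes up the ferric chelate, had the largest fitted fall of all probe sets, from 12.99, 12.78 and 12.89 to 5.55, 5.59 and 5.55, a 160-fold decrease (SE 0.27 on the log2 scale, adjusted p = 3.36e-08). OsIRT1, a ferrous Fe transporter, went from 11.82, 11.62 and 11.55 to 6.34, 5.82 and 5.72, a 52.0-fold decrease (adjusted p = 0.000165). The replicates of a group lay close together in both genes, and the groups were far apart.

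Further Fe carriers changed less. OsYSL2, a carrier of Fe nicotianamine, fell by 4.23 (SE 0.15), the metal transporter OsNRAMP1 by 4.21 (SE 0.14) and OsYSL16 by 1.95 (SE 0.15), with adjusted p of 1.55e-08, 1.55e-08 and 1.57e-05. OsNRAMP5, the main manganese uptake transporter of rice roots, differed by -1.46 (adjusted p = 7.92e-05), which is under 3-fold. OsYSL13 differed by 0.84 (adjusted p = 0.00575) in the other direction.

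Small regulators of the Fe deficiency response also fell. OsIMA1 (LOC_Os01g45914) belongs to the IRON MAN peptides, which in Arabidopsis promote Fe uptake; it went from 9.82, 9.95 and 10.31 to 3.61, 4.20 and 4.0, at least 41.1-fold lower (adjusted p = 1.81e-09). The bHLH gene IRO3 (LOC_Os03g26210), a regulator of Fe deficiency genes in rice, fell by 2.23 (SE 0.15, adjusted p = 5e-06). OsMIR, a mitochondrial protein gene induced in Fe-starved rice, was at least 2.12-fold lower (adjusted p = 1.36e-05). A separate list of 28 Fe uptake genes was taken by gene name and not by value. It lacks OsYSL2, TOM1, OsIMA1 and OsMIR, which were not matched by name. On the brightest probe set of each gene, 8 of the 28 fell and 1 rose. Their median was -0.33, against -0.0025 for all 17905 genes with a probe set of their own.

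**Figure D2:**
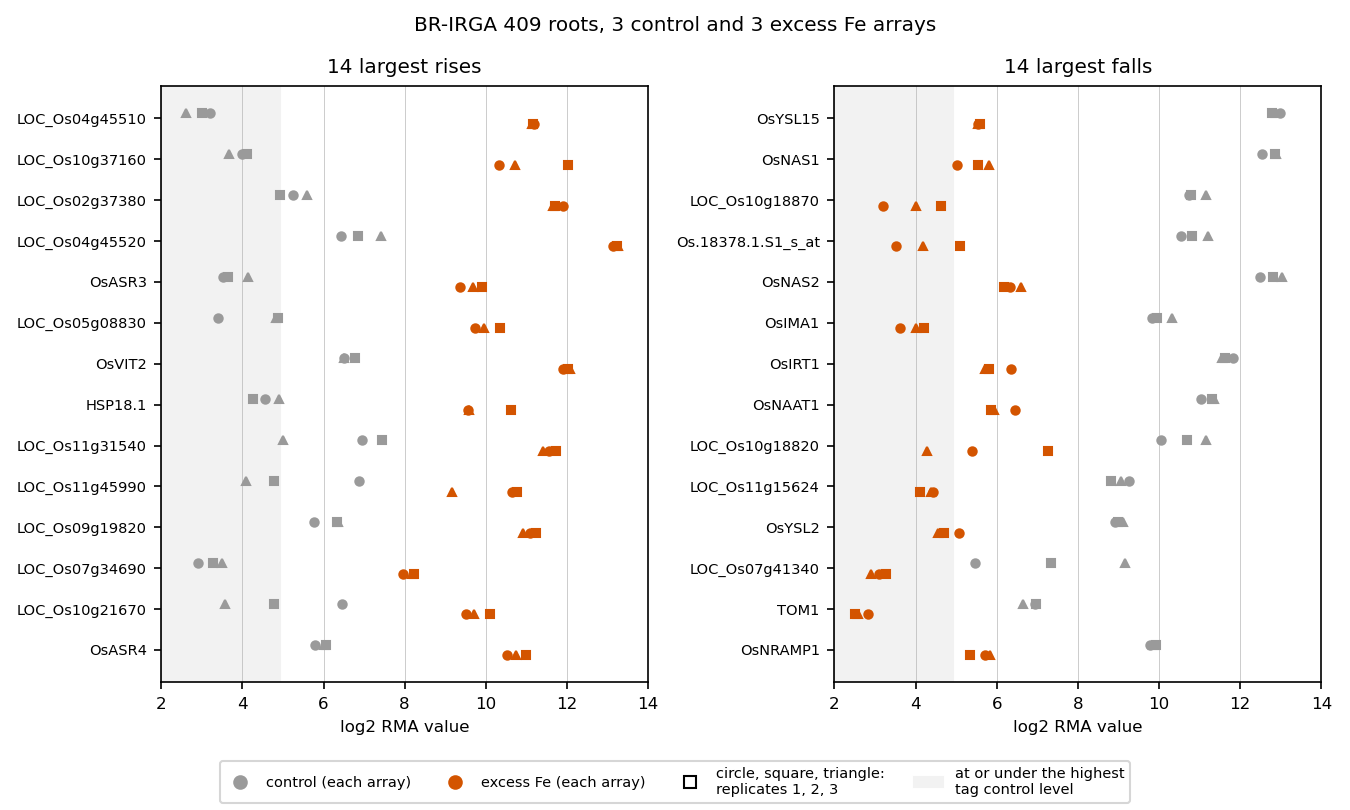
Log2 intensity on each of the 6 BR-IRGA 409 arrays for the 14 genes with the largest rises (left) and the 14 with the largest falls (right), one row per gene, with control arrays in grey, excess Fe arrays in orange and replicates 1, 2 and 3 as circle, square and triangle. The shaded band ends at the highest tag control level; OsYSL15 sits between 12.78 and 12.99 in controls and between 5.55 and 5.59 with excess Fe.

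Storage genes rose, led by genes of the vacuolar Fe transporter family. LOC_Os04g45520, which carries the membrane domain of that family, rose from 6.43, 6.85 and 7.41 to 13.13, 13.23 and 13.27, a 79.3-fold increase (SE 0.35 on the log2 scale, adjusted p = 1.45e-06). OsVIT2 (LOC_Os09g23300), which moves Fe into the vacuole, rose from 6.50, 6.77 and 6.51 to 11.91, 12.03 and 12.08, by 5.41 (SE 0.27, adjusted p = 5.4e-07). A second probe set of OsVIT2 rose by 4.59 (SE 0.23, adjusted p = 5.6e-07). With excess Fe the replicates nearly coincided on each probe set, and the groups did not overlap.

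A further gene of that family, LOC_Os04g59020, rose by 3.25 (SE 0.26, adjusted p = 1.97e-05), while OsVIT1 was not called (-0.83, adjusted p = 0.0184). The ferritin probe sets, for the plastid store, rose as well. OsFER1 read 8.61, 8.94 and 8.54 in controls and 10.62, 10.84 and 10.61 with excess Fe, a rise of 2.00 (SE 0.16, adjusted p = 1.74e-05). OsFER2 rose by 2.12 (SE 0.17, adjusted p = 2.22e-05). The ferritin genes are near-identical, so which of them rose cannot be told from these probe sets.

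Among probe sets described as other metal or ion transporters 13 were up and 3 down, close to the 81.4% of rises over all calls. OsZIP4, a zinc transporter, rose by 2.01 (adjusted p = 0.000348) and MTP3, a metal tolerance protein, by 1.99 (adjusted p = 0.000125). Of 12 genes for metal tolerance proteins and metallothioneins taken by name, MTP3 was the only one called, and their median was 0.19.

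Some potassium transporters of the HAK family rose. HAK17 rose from 4.74, 4.04 and 4.05 to 9.10, 9.02 and 7.96, at least 13.9-fold (adjusted p = 0.00315), and on a second, brighter probe set by 2.44 (adjusted p = 0.00515). HAK16 rose from 5.78, 5.53 and 4.80 to 9.22, 9.33 and 8.90, by 3.78 (SE 0.44, adjusted p = 0.00029). A probe set for HAK5 (LOC_Os01g70490) was at least 10.4-fold higher (adjusted p = 0.00276), but a second probe set that carries this name differed by -0.21 (adjusted p = 0.358). Of 22 HAK genes 3 rose and 1 fell, with a median of 0.10. Not all of these calls held. The fall, of HAK4 (-1.79), was under 3-fold without excess Fe replicate 2 (-1.57). The rise of HAK27, whose controls lay under the tag controls, was under 3-fold without excess Fe replicate 1 (1.54) or control replicate 3 (1.51) and with 16 added to the linear values (0.76).

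Sulfate transporters split. The gene described as sulfate transporter 3.5 (LOC_Os01g52130) rose from 7.19, 7.73 and 7.91 to 11.46, 11.50 and 11.48, by 3.87 (SE 0.33, adjusted p = 3.23e-05). One described as sulfate transporter 1.2 (LOC_Os03g09980) fell from 11.51, 11.77 and 11.56 to 8.61, 8.77 and 8.34, a difference of -3.04 (SE 0.41, adjusted p = 0.000728). In both genes the groups were apart on all arrays.

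Called genes for the modification and removal of small or foreign compounds rose, where 81.4% of all calls were rises. All 18 called P450 probe sets rose, with a median of 2.76, as did 8 of 8 for glutathione S-transferases, which attach glutathione to reactive compounds (median 2.28), and 9 of 9 for ABC and related drug transporters. Cytochromes P450 oxidise small molecules, hormones among them. The largest of these rises was a P450 gene described as CYP89A2 (LOC_Os10g37160), from 3.98, 4.11 and 3.66 to 10.32, 12.03 and 10.72, at least 70.2-fold (adjusted p = 0.000733). Replicate 2 stood highest, and the lowest excess Fe array lay far above the highest control. Taken by name, 29 P450 genes had a median of only 0.22, with 4 called up, 0 called down and 12 below 0. For 10 ABC transporter genes of the PDR group the median was 0.28, with 2 called up, 0 called down and 3 below 0.

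Of the called P450 probe sets 8 were described as CYP72A1, with rises from 1.62 to 4.64. The highest of them, LOC_Os01g43750, rose from 5.61, 5.98 and 5.57 to 10.33, 10.40 and 10.33 (SE 0.36, adjusted p = 1.57e-05). A CYP94A1 gene (LOC_Os01g58960), of a family whose members oxidise jasmonate conjugates in Arabidopsis, rose by 4.65 (SE 0.30, adjusted p = 4.39e-06). The ABC transporter OsPDR9 (LOC_Os01g42380) rose from 5.50, 5.65 and 4.66 to 8.85, 9.46 and 8.92, by 3.81 (SE 0.64, adjusted p = 0.00289).

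Redox genes were called up in 10 probe sets and down in 2, near the 81.4% of rises over all calls. OsAOX1b, the alternative oxidase that lets mitochondrial electrons bypass part of the respiratory chain, rose from 4.53, 4.33 and 4.62 to 8.46, 9.27 and 8.73, at least 15.2-fold (adjusted p = 0.000245). A peroxiredoxin gene (LOC_Os07g44440) rose by 3.82 (adjusted p = 0.00252). Another group of enzymes that remove superoxide or hydrogen peroxide had no call. Of 12 genes for ascorbate peroxidase, catalase and superoxide dismutase 0 were called by limma or by the methods' t-test, 4 had an unadjusted limma p under 0.05 and the median was 0.13. Of 33 thioredoxin and glutaredoxin genes taken by name 0 were called by either, with 11 at that unadjusted p and a median of 0.12. Genes that carry no such name did rise. The neighbours LOC_Os03g07226 and LOC_Os03g07234, both described as thioredoxin-like 3, were at least 2.82-fold (adjusted p = 6.79e-05) and at least 5.16-fold higher (adjusted p = 0.00144). An ascorbate oxidase gene (LOC_Os05g38420) fell by 2.62 (adjusted p = 0.000474) and hemoglobin 2 by 2.37 (adjusted p = 0.0019).

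**Figure D3:**
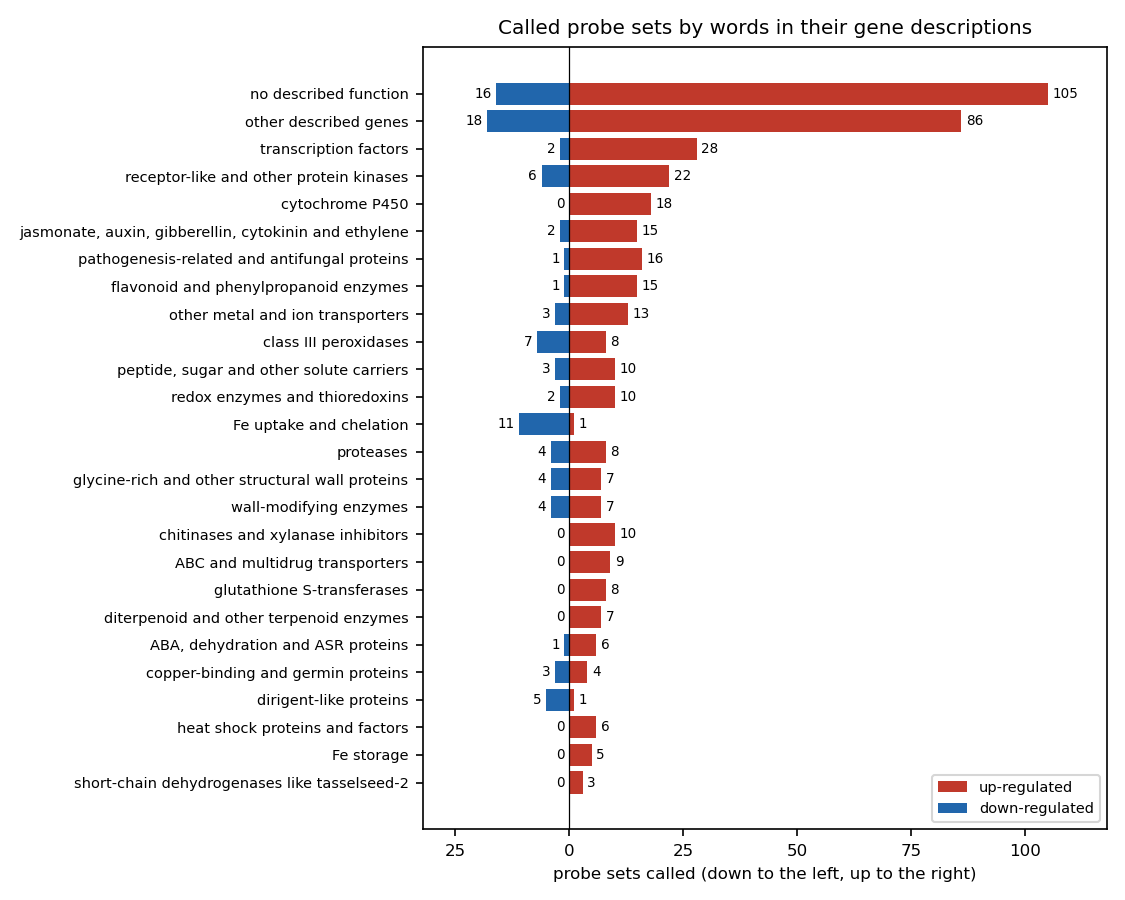
Number of called BR-IRGA 409 probe sets in each group by words in their descriptions, with down-regulated probe sets as bars to the left of 0 and up-regulated ones to the right, and the count at the end of each bar. Fe uptake lies almost wholly to the left (11 of 12 down), dirigent-like proteins mostly so (5 of 6), class III peroxidases on both sides (8 up and 7 down) and P450 wholly to the right (18 up).

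All 6 called probe sets described as heat shock proteins or factors rose, while small heat shock genes taken by name went both ways. HSP18.1 (LOC_Os03g16030), a small chaperone that binds unfolding proteins, read 4.57, 4.26 and 4.91 in controls and 9.57, 10.61 and 9.58 with excess Fe, at least 32.6-fold higher (adjusted p = 3.46e-07). A class II small heat shock gene (LOC_Os01g08860) rose from 4.90, 4.92 and 5.2 to 8.53, 9.73 and 8.62, by 3.95 (SE 0.29, adjusted p = 1.04e-05). Replicate 2 was highest in both, and the groups stayed apart. A second probe set that carries the name of the class II gene, HSP18.0, differed by 0.07 (adjusted p = 0.855). Genes for a 70 kDa chaperone (LOC_Os03g16920) and the heat shock factor HSFA4D rose by 3.09 and 2.73 (adjusted p = 0.000559 and 0.00139). Of 19 small heat shock genes taken by name, 3 rose, 1 fell and the median was 0.26. The fall, of HSP23.2, was -1.67 and under 3-fold without excess Fe replicate 3 (-1.49) or control replicate 1 (-1.54). HSFA4D was the only one of 20 heat shock factors to be called.

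Genes tied to abscisic acid and water deficit had a high median rise of 4.57, with 6 up and 1 down. OsASR3, an abscisic stress ripening protein, rose from 3.52, 3.65 and 4.13 to 9.36, 9.91 and 9.69, at least 27.2-fold (adjusted p = 0.000185). Its neighbour OsASR4 rose from 5.78, 6.07 and 6.01 to 10.52, 11 and 10.75, by 4.80 (SE 0.43, adjusted p = 4.87e-05). An ABA-responsive protein gene (LOC_Os12g29400) rose from 7.90, 7.97 and 7.66 to 12.18, 12.26 and 12.11 (4.34, SE 0.22, adjusted p = 6.07e-07). In all 3 genes every excess Fe array lay above every control array. Of 55 protein phosphatase 2C genes, a class that includes repressors of abscisic acid signalling, 0 were called by limma and 1 by the methods' t-test, 21 had an unadjusted limma p under 0.05 and the median was 0.03. These counts take the brightest probe set of each gene, and 1 of the 55 genes had another probe set called.

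Flavonoid and phenylpropanoid enzymes rose, 15 up and 1 down, with a median rise of 2.88. Chalcone synthase (LOC_Os07g34260), the entry enzyme of flavonoid synthesis, read 4.63, 4.06 and 3.50 in controls and 8.61, 9.13 and 7.93 with excess Fe, at least 12.7-fold higher (adjusted p = 0.00272). A flavonol glucosyltransferase (LOC_Os01g41430) rose from 4.40, 4.75 and 4.68 to 8.95, 9.52 and 9.11, at least 19.7-fold (adjusted p = 3.46e-07). A naringenin dioxygenase (LOC_Os04g49210), of the class that oxidises flavanones, rose by 4.37 (SE 0.77, adjusted p = 0.00407).

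Of 11 diterpenoid genes taken by name, among them enzymes that make the antimicrobial phytoalexins of rice, 6 were called up and 0 down. Their median was 1.88, and 3 lay below 0, CPS1 (-0.53) among them. CPS4, which forms the syn-copalyl diphosphate precursor of momilactones, rose from 6.18, 6.69 and 5.26 to 9.77, 9.46 and 9.16, by 3.42 (SE 0.62, adjusted p = 0.00461). KSL4, the next enzyme, read 4.29, 4.80 and 3.06 against 7.55, 6.71 and 6.79, at least 4.36-fold higher (adjusted p = 0.0364). Control replicate 3 was the lowest array for both. The KSL4 call was lost without any 1 of the 6 arrays, with an adjusted p from 0.0541 to 0.144, while that of CPS4 was kept. Without any 1 of these arrays the 6 calls came down to between 1 and 3.

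Defence proteins of the pathogenesis-related kind rose in 16 probe sets and fell in 1. All 10 called for chitinases and xylanase inhibitors, which act on fungal walls or block fungal enzymes, rose, and among 10 chitinase genes taken by name 5 rose, none lay below 0 and the median was 1.47. An endochitinase gene (LOC_Os01g47070) rose from 9.34, 9.49 and 9.37 to 13.01, 13.22 and 12.87, by 3.64 (SE 0.44, adjusted p = 0.000389). Protein P21 (LOC_Os03g46070), a thaumatin-like gene, rose from 6.09, 6.29 and 5.12 to 10.13, 10.13 and 9.78 (4.18, adjusted p = 0.000396).

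The PR10 genes were an exception to a common direction, even side by side. OsPBZ1 (LOC_Os12g36880) rose from 10.09, 10.41 and 7.92 to 13.11, 13.29 and 13, by 3.66 (SE 0.66, adjusted p = 0.00447), with control replicate 3 far below the other controls. LOC_Os12g36840 fell from 11.17, 11.44 and 11.25 to 7.77, 6.94 and 6.90, a difference of -4.08 (SE 0.27, adjusted p = 4.82e-06). Control and excess Fe arrays were apart in both.

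Cell wall genes moved in both directions. Class III peroxidases, which cross-link wall polymers, were split at 8 up and 7 down over 14 loci. OsPrx46 rose from 7.95, 8.06 and 7.99 to 11.44, 11.14 and 11.12 (3.23, SE 0.51, adjusted p = 0.00209), and OsPrx104 rose by 3.29 (SE 0.23, adjusted p = 8.15e-06). OsPrx41 fell from 8.85, 7.94 and 7.64 to levels under the tag controls, at least 11.2-fold (adjusted p = 0.000937). OsPrx107 fell from 10.60, 10.42 and 10.16 to 7.27, 6.45 and 7.90, a difference of -3.18 (SE 0.30, adjusted p = 6.96e-05).

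Glycine-rich and other structural wall proteins were split too, at 7 up and 4 down. A glycine-rich wall protein gene (LOC_Os06g09870) rose from 7.51, 8.19 and 7.91 to 12.07, 12.63 and 12.38, by 4.49 (SE 0.45, adjusted p = 0.000118). Within a stretch of similar genes LOC_Os10g31470 rose by 3.58 (SE 0.64, adjusted p = 0.00439), whereas LOC_Os10g31670 fell from 10.60, 10.52 and 10.47 to 7.41, 7.78 and 8.60 (-2.60, SE 0.34, adjusted p = 0.000662). A cortical cell-delineating protein gene (LOC_Os04g46810), named for root cortex cells, fell from 13.21, 13.29 and 13.37 to 9.62, 10.67 and 10.95 (-2.87, SE 0.64, adjusted p = 0.015). Its groups did not overlap, but without excess Fe replicate 1, control replicate 2 or control replicate 3 the adjusted p was 0.0614, 0.0515 or 0.0519.

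Dirigent proteins, which steer the coupling of phenolic radicals, fell in 5 of 6 probe sets. LOC_Os10g18870 read 10.73, 10.79 and 11.17 in controls and 3.20, 4.62 and 4.02 with excess Fe, a difference of -6.95 (SE 1.10, adjusted p = 0.00205). Its excess Fe replicates 1 and 3 lay under the tag controls, so the size of that fall is uncertain. LOC_Os10g18820 read 10.04, 10.70 and 11.17 against 5.39, 7.26 and 4.29 (-4.99, SE 1.06, adjusted p = 0.0121). The excess Fe arrays of this gene spread widely, though all lay below the controls, and without excess Fe replicate 3 or control replicate 3 its adjusted p was 0.0574 or 0.0505. LOC_Os11g07770 fell by 3.20 (SE 0.47, adjusted p = 0.00136), while LOC_Os12g07580 rose from 6.82, 6.82 and 7.15 to 9.29, 9.88 and 9.24 (2.54, adjusted p = 0.00033).

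Wall-modifying enzymes were called up in 7 probe sets and down in 4. The xyloglucan endotransglucosylase/hydrolase gene LOC_Os06g48180, for an enzyme that cuts and rejoins hemicellulose, fell from 9.96, 10.59 and 10.39 to 7.17, 7.29 and 7.46, a difference of -3.01 (SE 0.35, adjusted p = 0.000324). Cellulose synthase genes, 9 in all, differed by -0.78 to -0.21 with a median of -0.57. Of these 0 were called by limma or by the methods' t-test, and 8 had an unadjusted limma p under 0.05. Beta-1,3-glucanases, which degrade callose and fungal glucan, rose in 4 probe sets by 1.90 to 3.72.

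Transcription factors were called up in 28 probe sets and down in 2. Protein kinases were called in 22 and 6, near the 81.4% of rises over all calls, and 12 and 2 of them were described as receptor-like. The largest fitted rise of a transcription factor was a zinc finger gene described as TRANSPARENT TESTA 1 (LOC_Os05g37190), from 5.48, 6.35 and 6.49 to 9.56, 9.61 and 9.38 (3.41, SE 0.65, adjusted p = 0.0061). OsWRKY77, of a family that acts in defence, was at least 5.31-fold higher (adjusted p = 0.00157), and a DREB2A-like gene (LOC_Os01g07130), of a class that acts in drought, rose by 3.10 (adjusted p = 0.00023). A RADIALIS-like MYB gene (LOC_Os05g50340) fell by 3.12 (adjusted p = 0.000252).

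Among the kinases, a gene described as a BAK1-like receptor kinase (LOC_Os11g31540), a co-receptor class in Arabidopsis, rose from 6.96, 7.44 and 5.0 to 11.55, 11.73 and 11.41, by 5.10 (SE 0.90, adjusted p = 0.00389). CIPK23, a kinase that acts on ion channels, rose from 9.52, 9.10 and 9.19 to 11.75, 11.86 and 11.89, by 2.56 (SE 0.24, adjusted p = 7.24e-05). Families of regulators taken by name had medians of 0.54 for 6 WRKY genes, 0.80 for 8 NAC genes, 0.44 for 13 JAZ genes and 0.39 for 16 lipoxygenase and oxophytodienoate reductase genes.

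Hormone genes were called up in 15 probe sets and down in 2. A gene described as jasmonate O-methyltransferase (LOC_Os06g20960), of the class that forms methyl jasmonate, rose from 7.01, 6.54 and 6.69 to 9.40, 10.10 and 9.29, by 2.85 (SE 0.28, adjusted p = 9.66e-05). The peptide hormone precursor gene PSK4 (LOC_Os07g03200) rose by 3.31 (SE 0.57, adjusted p = 0.0036). On the other side, a jasmonate-induced protein gene (LOC_Os10g18760) fell from 9.79, 9.94 and 10.24 to 6.01, 7.39 and 6.65, a difference of -3.31 (SE 0.62, adjusted p = 0.00574), and an ethylene-forming ACC oxidase gene (LOC_Os02g53180) fell by 1.79 (adjusted p = 0.0027). Each of these had groups that did not overlap.

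Protease genes were called up in 8 probe sets and down in 4. An aminopeptidase-like gene (LOC_Os09g19820) rose from 5.77, 6.33 and 6.35 to 11.10, 11.23 and 10.92, by 4.93 (SE 0.41, adjusted p = 2.84e-05). Genes described as aspartic proteinases rose in 4 probe sets by 1.82 to 3.23, while cysteine proteases, often tied to senescence, rose in 1 and fell in 3. LOC_Os09g39070, a thiol protease, fell from 12.09, 12.91 and 12.57 to 9.56, 10.61 and 9.86 (-2.51, SE 0.31, adjusted p = 0.000466). Copper proteins split as well, at 4 up and 3 down. LPR1 (LOC_Os01g03530), whose Arabidopsis relative oxidises ferrous Fe, rose from 8.37, 8.31 and 8.15 to 10.14, 10.91 and 10.09, by 2.10 (SE 0.21, adjusted p = 0.000124). A copper amine oxidase gene (LOC_Os04g40040) fell from 12.22, 12.09 and 12.34 to 10.01, 9.85 and 9.79 (-2.33, SE 0.28, adjusted p = 0.000352).

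Carriers of peptides, sugars and other solutes were called up in 10 probe sets and down in 3. Peptide transporters of the PTR2 and oligopeptide kind rose in 4 probe sets and fell in 1. The fall was of LOC_Os01g65110, from 7.64, 8.50 and 9.02 to levels under the tag controls, at least 13.2-fold (adjusted p = 2.7e-06). Of the rises, LOC_Os05g34030 went from 5.11, 5.0 and 4.94 to 7.54, 8.55 and 8.28, by 3.11 (SE 0.38, adjusted p = 0.000411). A polyol transporter gene (LOC_Os03g10090) rose by 2.94 (SE 0.30, adjusted p = 0.000129). The carrier gene LOC_Os11g05390, described as a tetracycline transporter, fell from 9.84, 9.96 and 9.94 to 6.61, 5.88 and 5.95 (-3.77, SE 0.25, adjusted p = 5.35e-06).

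**Figure D4:**
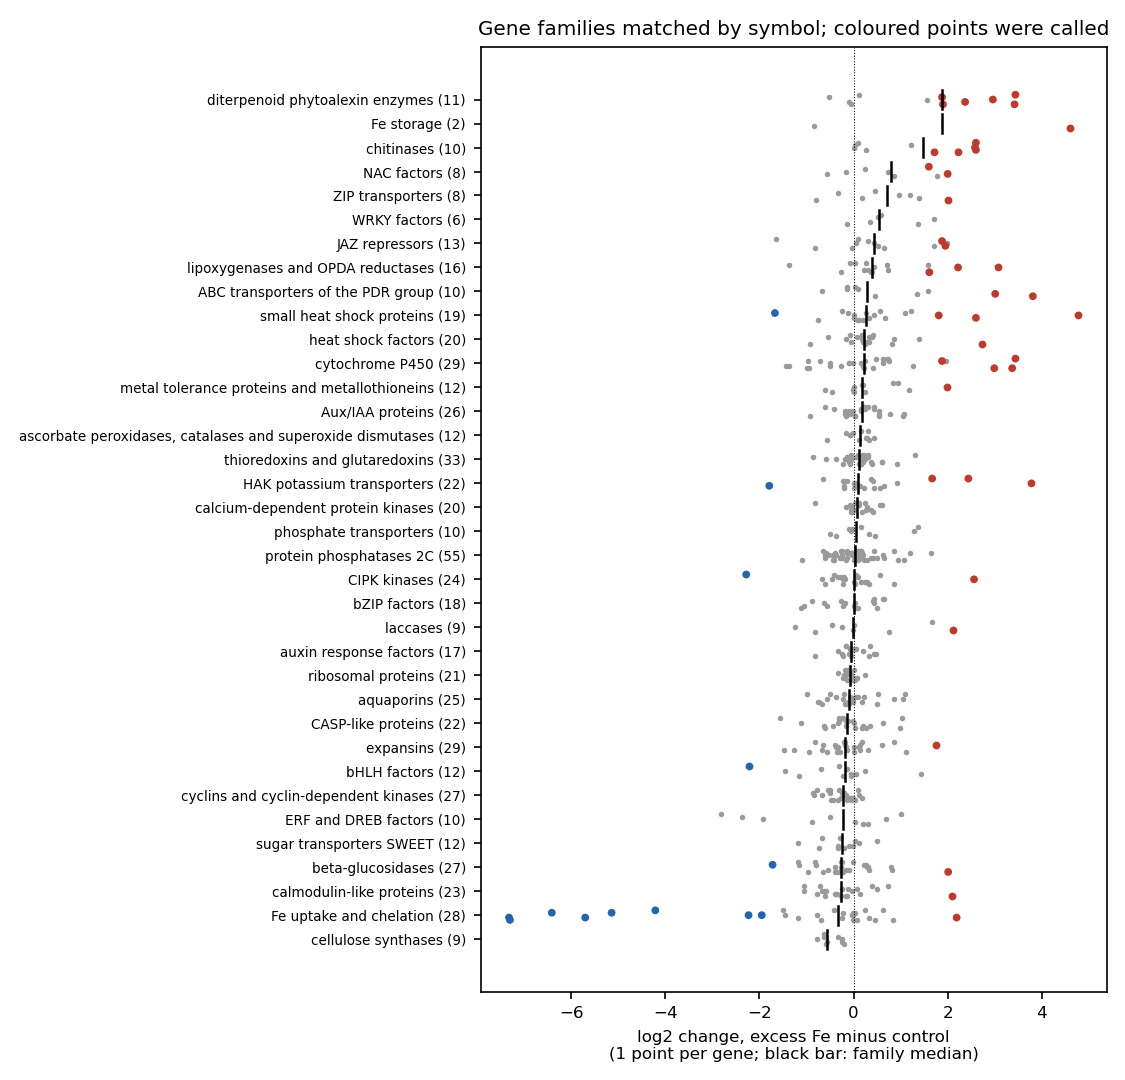
Log2 difference of excess Fe minus control for the genes of families chosen by gene name, one row per family, with one point per gene on its brightest probe set and a bar at the median. Medians range from -0.57 for cellulose synthases to 1.88 for diterpenoid enzymes and Fe storage, and the median of all genes is -0.0025. Fe storage holds only 2 genes here, OsVIT2 at 4.59 and OsVIT1 at -0.83, so its median describes neither.

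Of all 17905 genes 1.93% rose and 0.413% fell, so a small family with no call is near that background. Of 36 families 16 had no call by limma, among them 21 ribosomal protein genes with a median of -0.08, 25 aquaporins with -0.09 and 27 cyclins and their kinases with -0.23. Of these genes 2, 10 and 9 had an unadjusted limma p under 0.05, and the methods' t-test called 0 in all 3 families. Cyclins and their kinases lay below 0 in 23 of 27 genes. A probe set of the aquaporin OsPIP2;1 that is not the brightest of its gene, noticed after its value was seen, rose by 2.18 (adjusted p = 0.000132), so the count holds for the brightest probe set of each gene.

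A large share of the response could not be given a function from the sources used. It was 288 of the up-regulated probe sets (45.9%) and 59 of the down-regulated ones (41.3%). For 105 and 16 of these the description named no function. The rest had no listed description and no gene symbol, and may still belong to described genes. This share was not counted over all probe sets, of which 34822 of 57258 were not assigned to 1 gene. The called probe sets of this kind hold 5 of the 20 largest rises and 4 of the 20 largest falls by fitted difference. LOC_Os04g45510, a hypothetical protein, lay at 3.21, 3.0 and 2.61 in controls, under the tag controls, and at 11.20, 11.17 and 11.14 with excess Fe, at least 77.7-fold higher (adjusted p = 3.82e-06). Its neighbour on the chromosome is LOC_Os04g45520, the vacuolar transporter-like gene above. The strand and the genome positions were not analysed here, so whether their signals are separate was not tested.

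Further genes of this kind also had large rises. LOC_Os02g37380 rose from 5.25, 4.93 and 5.59 to 11.90, 11.71 and 11.65, a 90.4-fold increase (SE 0.76 on the log2 scale, adjusted p = 0.000313). LOC_Os05g08830 rose from 3.41, 4.89 and 4.82 to 9.73, 10.36 and 9.95, at least 34.8-fold (adjusted p = 0.00053). LOC_Os07g34690 was at least 9.34-fold higher (adjusted p = 1.29e-05). All 3 had groups that were widely apart.

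Unknown genes also fell. LOC_Os11g15624 read 9.26, 8.81 and 9.06 in controls and 4.43, 4.10 and 4.38 with excess Fe, at least 20.8-fold lower, with an SE of 0.13 that is among the smallest of all calls (adjusted p = 1.81e-09). LOC_Os03g52680 fell by 3.34 (adjusted p = 0.000228). A probe set with no listed gene, Os.18378.1.S1_s_at, fell from 10.55, 10.82 and 11.20 to 3.52, 5.10 and 4.19, a difference of -6.59 (SE 1.08, adjusted p = 0.0026). The size of this fall is uncertain, since excess Fe replicates 1 and 3 lay under the tag controls.

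Some further genes with a description belong to none of the groups above. The B12D protein gene LOC_Os07g41340 read 5.47, 7.33 and 9.15 in controls and lay under the tag controls with excess Fe, at least 6.29-fold lower (adjusted p = 0.00377), with a wide spread among the controls. A gene with a von Willebrand factor type A domain (LOC_Os11g45990) rose from 6.88, 4.78 and 4.09 to 10.64, 10.76 and 9.16, by 4.94 (SE 0.75, adjusted p = 0.00159). Control replicates 2 and 3 of this gene lay under the tag controls, so the size of its rise is uncertain. Omega-6 fatty acid desaturase genes, which add double bonds to membrane lipids, rose by 3.17 (LOC_Os07g23430) and 2.61 (LOC_Os07g23410), while a plastid acyl-desaturase gene (LOC_Os01g65830), noticed after its value was seen, fell by 1.62 (adjusted p = 0.00142).

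Called genes often lay side by side. Of the 361 genes of the reference annotation with an up-regulated probe set, 68 (18.8%) had an adjacent measured gene that also rose, and 3.93% of all measured genes had such a neighbour. For the 80 genes that fell the share was 2.5%, against 0.888%. By the locus names of the study's tables, 100 of 508 called loci formed 43 runs in which members lay no more than 3 gene models apart, 37 of them all up, 4 all down and 2 mixed. Neighbours of a run are often close copies, and probe sets of close copies can share signal.

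The longest run held 5 CYP72A1 genes, LOC_Os01g43700 to LOC_Os01g43774, with rises of 1.82, 1.62, 4.21 and 4.64 and, for the last, whose controls lay under the tag controls, of at least 5.67-fold. Its second member, at 1.62, fell under 3-fold without excess Fe replicate 2 (1.50) or control replicate 3 (1.58). BAK1-like kinases formed a run of 3 (LOC_Os11g31530 to LOC_Os11g31550) with 1.88, 5.10 and 2.71. Win genes, which encode chitin-binding wound proteins, formed another (LOC_Os11g37940 to LOC_Os11g37970) with 2.40, 3.05 and 2.88. Runs of 3 without a described function lay at LOC_Os02g12070 to LOC_Os02g12090 (2.83, 2.32 and 2.49) and LOC_Os08g05960 to LOC_Os08g05980 (2.24, 2.46 and 2.69). A mixed run is that of the PR10 genes, LOC_Os12g36830 to LOC_Os12g36880, with 2.76, -4.08, 1.95 and 3.66. The calls of its first and the next to last member were lost without control replicate 3, at an adjusted p of 0.0506 and 0.0838.

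**Figure D5:**
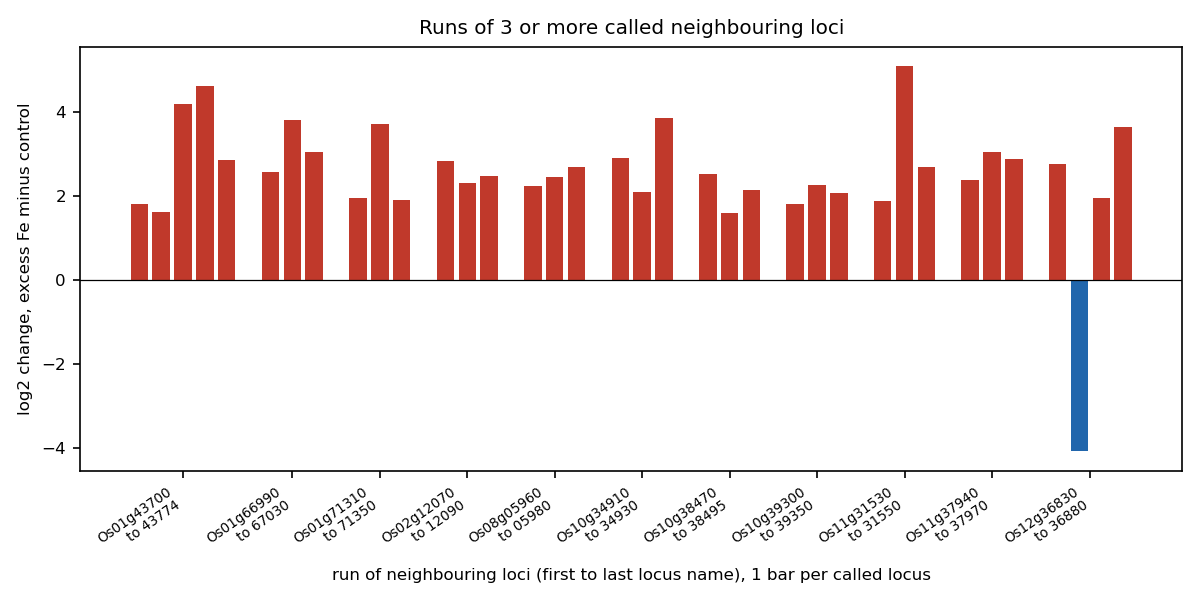
Log2 difference of excess Fe minus control for called loci in runs of at least 3 neighbours, with runs along the horizontal axis and one bar per called locus in the order of the locus names. The CYP72A1 run rises throughout, from 1.62 to 4.64, and the PR10 run holds 1 locus that fell, at -4.08.

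Whether the response is that of BR-IRGA 409 and not of EPAGRI 108 was tested as an interaction in the same limma fit. Directions of EPAGRI 108 follow its array labels here, and the study's own tables give that cultivar in the opposite direction. Of the 770 calls, 73 (9.48%) differed from EPAGRI 108 at an adjusted p under 0.05 and 3-fold, against 0.140% of all probe sets. Of these, 44 rose more and 29 fell more in BR-IRGA 409. Both the share and the direction were favoured by the choice, since all 770 were called for a change of 3-fold or more in BR-IRGA 409. The remaining 583 rises and 114 falls did not pass the test, which does not show that they were alike in both cultivars. With the EPAGRI 108 labels exchanged, 760 calls (98.7%) differed, against 3.21% of all probe sets, so this count turns on the labels.

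Of the 73 differing calls 12 were Fe genes, 9 of the 12 called for uptake and 3 of the 5 called for storage, while 19 had no listed description and 11 no described function. OsYSL15 fell by 6.39 more than in EPAGRI 108 (adjusted p = 8.85e-06) and OsNAS2 by 5.95 more (adjusted p = 2.88e-07). OsVIT2 rose by 4.25 more (adjusted p = 0.000362). HSP18.1 rose by 4.36 more on its brighter probe set (adjusted p = 2.04e-05), against 0.41 in EPAGRI 108. OsIMA1, TOM1 and LOC_Os11g15624 passed this test as well, but lay under the tag controls with excess Fe, so no size is given for their difference.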

How the data were processed

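The values are those of the series matrix, 1 log2 value for each probe set and array, made by the authors from scans with RMA in ArrayAssist and deposited on the log2 scale. In RMA the background is corrected, arrays are brought to a shared distribution and the probes of each probe set are combined. The methods also describe a fixed quantity added to the linear values, whose size is not given in the sources used here. Differences of dim genes are smaller the larger that quantity is. With 3 arrays a group, that number limits how precise each value is. Medians of the arrays lay between 5.156 and 5.221, with 30305 to 34108 probe sets above the tag controls.

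The AFFX control probe sets (123) were left out and 57258 probe sets were tested. Of these 64 are reporter probe sets, none of them called. Group means of all 4 groups were fitted over 12 arrays (8 residual degrees of freedom) with limma 3.58.1 in R 4.3.3 with moderated variances, and every adjusted p printed is limma's, with Benjamini-Hochberg adjustment over all probe sets. A call needs an adjusted p under 0.05 and at least 3-fold. The methods' own rule, a t-test with an unadjusted P up to 0.05 beside the 3-fold limit, was also run. Python 3.11.15, pandas 2.3.3, numpy 2.4.6 and matplotlib 3.10.9 made the tables and figures. The fit was tested on simulated data for this comparison, over 57258 probe sets. It recovered 90% of 100 changes of 4-fold and 98% of 100 changes of 8-fold, with 2 false calls. Recovery in dim probe sets was not tested, so these shares cannot be taken to hold for them. Of the rises, 20.1% had all control arrays at or under the tag controls.

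Probe sets were named through the annotation tables used here, which give 22436 of them 1 gene, for 17905 genes, and through the locus names and descriptions in the study's own tables. No genome or sequence was used. The authors' fold changes and p-values in those tables were not used. The members and gene lists were chosen with earlier results of these data known. The rule for named genes took the 20 largest rises and 20 largest falls that do not overlap between groups. It also took up to 4 called members of each gene class in each direction and 2 uncalled ones. Further, it took the 10 largest rises and 5 largest falls of unknown function or with no listed gene. All Fe uptake and storage genes, and members of runs of neighbouring called genes, completed it. The rule took 334 probe sets, of which 246 were called. Genes outside the rule are said to be so where they are named, other than marker genes.

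Same-numbered arrays of the groups deviated together, with correlations of their deviations from the group means of 0.49, 0.209 and 0.108 for replicates 1, 2 and 3, all over the limit of 0.1, so the numbers were taken as pairs in an alternative fit. The labels state no pairing, and control 3 correlated more with excess Fe 2 (0.314). Other alternatives were the BR-IRGA 409 arrays alone, 16 added to the linear values, dim probe sets left out, each array centred on its median, a variance prior with an intensity trend, and leaving out each array.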

Additional observations from a re-analysis of the deposited data

Results flagged for a closer look

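These results stand out because the response to excess Fe in BR-IRGA 409 differed from that in EPAGRI 108 in a test of the difference itself (limma interaction, adjusted over all probe sets). Values are the log2 response of BR-IRGA 409 minus that of EPAGRI 108, taken by the array labels. All 43 depend on the EPAGRI 108 labels, which the study's tables give in the other direction, and no explanation was tested.

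Among genes that fell more in BR-IRGA 409, the Fe uptake genes had the largest differences. They were -6.39 for OsYSL15 (adjusted p = 8.85e-06), -6.16 for OsNAS1 (0.00101 adjusted), -5.95 for OsNAS2, -5.38 for OsNAAT1 (3.8e-06 adjusted), -3.90 for OsYSL2, -3.88 for OsNRAMP1 and -1.85 for IRO3. Outside Fe uptake, the PR10 gene LOC_Os12g36840 differed by -3.30 and the carrier LOC_Os11g05390 by -2.76. The protein kinase genes LOC_Os01g03370 and LOC_Os01g46720 differed by -3.62 and -2.06. The protease LOC_Os09g39120 differed by -2.13 and the glucanase LOC_Os08g14080 by -1.79 (adjusted p = 0.04). Probe sets with no listed gene differed by -2.82 (OsAffx.32059.1.S1_at) and -2.54 (OsAffx.18687.1.S1_x_at).

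Among genes that rose more in BR-IRGA 409, the vacuolar transporter-like LOC_Os04g45520 differed by 4.42 (adjusted p = 0.00192). OsVIT2 differed by 4.25 and 3.72 on its probe sets and its relative LOC_Os04g59020 by 2.42. The chaperone gene HSP18.1 differed by 4.36 on its brighter probe set and the class II small heat shock gene LOC_Os01g08860 by 3.11 on the probe set that rose. P450 genes differed by 2.97 (LOC_Os01g43720) and 2.73 (LOC_Os01g58960). The ABA-responsive LOC_Os12g29400 differed by 3.34, OsPrx104 by 2.81 and the subtilase LOC_Os04g03802 by 3.56. Genes of unknown function differed by 3.23 (LOC_Os08g24200), 2.60 (LOC_Os01g67010) and 2.17 (LOC_Os08g31850), and a probe set with no listed gene by 3.60 (Os.11305.1.S1_at).

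For 13 of the 43 a BR-IRGA 409 group lay at or under the tag controls on all its arrays, so the fitted differences that follow rest on values not above background and are no measure of size. They were -6.01 for OsIMA1, -4.72 for LOC_Os11g15624, -4.21 for TOM1, -3.72 for LOC_Os01g65110, -2.93 for OsMIR and -2.02 for LOC_Os09g21370. Among rises they were 5.39 for LOC_Os04g45510, 5.25 for the dimmer HSP18.1 probe set, 3.86 for LOC_Os01g41430, 3.11 for LOC_Os03g07226, 3.07 for LOC_Os07g34690, 2.19 for LOC_Os08g31860 and 2.06 for LOC_Os01g43774.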

How the results depend on the processing

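The counts of 627 up-regulated and 143 down-regulated probe sets moved by over 1.5 times under 1 alternative, the methods' t-test with Benjamini-Hochberg adjustment, which gave 371 and 72. Without that adjustment it gave 645 and 142. With 16 added to the linear values 460 rose and 100 fell, all 460 among the rises above. Leaving out 1 array gave 546 (without BR-IRGA 409 excess Fe replicate 2) to 647 rises and 126 to 165 falls. With the replicate number as a block the counts were 637 and 143 over all groups and 649 and 147 within BR-IRGA 409, and the block ended none of the 246 named calls. The adjusted t-test ended 86 of them, among them LOC_Os11g31540 (adjusted p = 0.0742), 16 added to the linear values ended 19 and centring 1. Leaving out 1 array ended 0 to 23, and 30 were lost without at least 1 array. None reversed.

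The 73 calls that differed from EPAGRI 108 were 54 to 88 without 1 array and 77 with the replicate block. With 16 added they were 47, and with the EPAGRI 108 labels exchanged 760. Both of these were chosen after seeing the data. The causes of these shifts were not tested. Changes of genes near the tag controls are bounds only, and the unstated quantity added by the authors limits the size of dim changes.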

Other observations

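A few stress genes had differences that did not pass the test and control arrays that disagree. They were singled out after their values were seen. DREB1A, a cold response regulator, read 5.96, 8.95 and 9.0 in controls and 5.43, 6.11 and 5.25 with excess Fe, a difference of -2.38 (limma adjusted p = 0.0879). DREB1B read 6.12, 9.38 and 9.24 against 6.34, 5.29 and 4.64, a difference of -2.82 (adjusted p = 0.0642). Control replicate 1 lay with the excess Fe arrays for both genes. For the diterpenoid gene CPS2, which forms the ent-copalyl diphosphate of other phytoalexins, control replicate 3 stood apart, at 3.93 beside 7.01 and 7.13, and excess Fe arrays read 8.01, 7.58 and 7.17 (1.56, under 3-fold, adjusted p = 0.395).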
